A study of Mus musculus with 46 samples.

Results

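The cecum was compared with the liver in mice on a high-fat diet (HFD), using the 6 cecum arrays and the 6 liver arrays whose titles name the HFD, 12 of the 46 arrays of the study. Male C57Bl/6 mice received the HFD, with 45% of energy as fat, from 12 weeks of age for 8 weeks, so that tissues were taken at 20 weeks of age. The labels name no transgene or deletion, and both groups ate the same diet. The other 34 arrays came from mice on a low-fat diet (LFD), on the HFD with inulin (HFD + inulin), a fermentable fiber, or on the HFD with mixed inulin propionate and inulin butyrate esters (HFD + inul PB). Total RNA from each tissue was hybridised to a 1-colour Agilent whole-genome mouse array. The labels do not say whether a cecum array and a liver array of the same number came from 1 mouse, so the tissues were compared as unpaired groups.

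The liver releases most plasma proteins, makes bile acids, urea and ketone bodies, and stores and releases glucose. The cecum is the pouch at the start of the large intestine, where microbes ferment fiber to short-chain fatty acids, and its wall holds an absorptive and mucus-secreting epithelium over smooth muscle with enteric nerves. Both organs arise from gut endoderm, share factors such as Hnf4a, and are joined by the portal vein and by the bile, so that each handles the same bile acids and fuels with partly different genes.

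Values are log2 normalised signals, and a difference is the mean of 6 cecum arrays minus the mean of 6 liver arrays. Its SE and P come from a fit of all arrays of the study. They therefore also reflect the spread between arrays on the other diets. A probe was called at a fold above 1.5 and P below 0.01 in limma, the criteria of the study. A gene was read from its probe of highest mean signal over the 12 arrays. It was counted as detected in a tissue when the scanner software marked that probe as well above background on all 6 arrays there. When a probe was so marked on all 6 arrays of 1 tissue and on none of the other, the gene was counted as restricted, and its fold is a lower bound, written as at least N-fold. Where a probe was marked on only some arrays of the lower tissue, the number of arrays is given beside the fold. Such a fold averages in the below-background signals of the other arrays, so its size is uncertain and is not a measured ratio. Levels of different probes are not compared, only the tissue difference of each.

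The promoters of 6 restricted genes are shown first, since the sequence before the start of transcription is where the regulators of liver and gut genes bind. They belong to the 3 liver-only and the 3 cecum-only genes of largest bound whose 250 bases before the start hold GTTAAT on either strand, the core of the HNF1 recognition sequence. Sequences are from RefSeq on GRCm38.p6, 250 bases read 5′ to 3′ on the strand of the gene and ending just before its start. Capitals mark GTTAAT or its reverse complement ATTAAC, a forkhead match (GTAAACA, the reverse complement of TGTTTAC) and the TATA box core TATAAA.

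The 3 liver-only genes encode serum albumin (Alb, chr5:90460620-90460869, plus strand), vitamin D-binding protein (Gc, chr5:89457899-89458148, minus strand) and the beta chain of fibrinogen (Fgb, chr3:83049864-83050113, minus strand).
Alb: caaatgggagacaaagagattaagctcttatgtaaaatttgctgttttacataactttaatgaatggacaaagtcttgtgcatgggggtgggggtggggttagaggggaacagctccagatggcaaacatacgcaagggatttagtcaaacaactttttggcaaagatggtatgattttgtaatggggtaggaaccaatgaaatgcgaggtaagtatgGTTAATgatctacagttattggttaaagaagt
Gc: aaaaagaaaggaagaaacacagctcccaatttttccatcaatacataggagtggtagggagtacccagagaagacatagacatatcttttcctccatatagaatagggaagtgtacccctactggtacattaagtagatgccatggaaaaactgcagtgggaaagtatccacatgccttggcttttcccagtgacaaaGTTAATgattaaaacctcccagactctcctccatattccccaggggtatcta
Fgb: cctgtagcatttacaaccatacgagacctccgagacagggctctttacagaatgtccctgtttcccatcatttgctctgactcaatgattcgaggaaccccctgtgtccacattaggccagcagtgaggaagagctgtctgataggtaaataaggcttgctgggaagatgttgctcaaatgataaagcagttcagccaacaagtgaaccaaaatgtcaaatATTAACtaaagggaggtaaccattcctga

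The 3 cecum-only genes encode the gut homeobox factor Cdx2 (chr5:147307250-147307499, minus strand), the chloride and bicarbonate exchanger of the colon surface (Slc26a3, chr12:31437969-31438218, plus strand) and a hydroxyacid oxidase (Hao2, chr3:98893231-98893480, minus strand).
Cdx2: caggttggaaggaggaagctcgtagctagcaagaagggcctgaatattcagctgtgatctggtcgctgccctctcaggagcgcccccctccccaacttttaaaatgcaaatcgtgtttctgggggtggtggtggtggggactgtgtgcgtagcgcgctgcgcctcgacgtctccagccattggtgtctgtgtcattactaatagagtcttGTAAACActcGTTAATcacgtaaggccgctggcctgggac
Slc26a3: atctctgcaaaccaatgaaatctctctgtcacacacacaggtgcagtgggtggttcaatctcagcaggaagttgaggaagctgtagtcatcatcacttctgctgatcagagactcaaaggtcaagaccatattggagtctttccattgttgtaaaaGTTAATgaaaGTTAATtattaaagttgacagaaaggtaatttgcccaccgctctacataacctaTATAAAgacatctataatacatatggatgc
Hao2: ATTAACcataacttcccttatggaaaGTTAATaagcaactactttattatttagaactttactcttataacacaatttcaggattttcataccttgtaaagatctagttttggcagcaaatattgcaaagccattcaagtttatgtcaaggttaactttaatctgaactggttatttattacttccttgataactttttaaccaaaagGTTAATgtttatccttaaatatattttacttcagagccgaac

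In the promoter of Alb the match begins 32 bases before the start, in that of Fgb 29 bases and in that of Cdx2 30 bases. Over promoters from 250 bases before to 50 after the start, GTTAAT stood on either strand in 15.9% of 226 liver-only genes, 7.76% of 709 cecum-only genes, 5.71% of 9074 genes detected in both tissues and 7.2% of all 16552 promoters of genes on the array. The HNF4 sequence CAAAGTCCA stood in 2.65%, 0.987%, 0.507% and 0.55%, and TATAAA in 22.6%, 14.7%, 9.25% and 14.1%. The CDX sequence TTTATGG stood in 5.75% of liver-only and 3.39% of cecum-only promoters, against 2.75% of all. For TTTATTG, the other CDX sequence, the shares were 5.31% and 3.67%, against 4.02%. Shares of the forkhead sequence TGTTTAC were 3.98% and 3.95%, against 3.52% of all. TTGCGCAA, the C/EBP sequence, was in 0% of liver-only and 0.423% of cecum-only promoters, against 0.26% of all. The full HNF1 palindrome, 2 such cores facing each other around a single base, was found in a single promoter, that of the liver-only gene AI182371 (0.442% of its class). Both strands were searched. A match is a description of these letters and not of binding.

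The arrays of 1 tissue resembled each other more than those of the other. Over the 20819 probes detected on all 12 arrays, r between arrays was 0.974 to 0.995 within cecum, 0.986 to 0.995 within liver and 0.816 to 0.836 between tissues. The first principal component held 91.5% of the variance and set cecum scores of 192.8 to 205.6 apart from liver scores of -208.3 to -193.4. Spots well above background made up 49.8% to 55.9% of each cecum array and 46.5% to 50.4% of each liver array, and no spot was saturated. Each slide held arrays of 1 tissue, so tissue and slide cannot be told apart. One of the 3 scan days held both tissues, HFD replicates 1 and 2 of each, and gives a comparison within 1 day. These are bulk RNA samples, in which fewer cells of a type and less RNA per cell cannot be told apart.

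Cecum HFD replicate 5 stood apart from the other cecum arrays. It lay above all 5 others by more than 2-fold for 503 genes and below all of them for 246 genes, while each of the other cecum arrays did so for 10 to 301 and 4 to 154 genes. Fabp6, the bile acid-binding protein of ileal enterocytes, was 18.4 in replicate 5 and 9.51 to 10.78 in the other 5 arrays. Sis, the small-intestinal sucrase-isomaltase, was 14.72 against 4.9 to 6.12, and the Paneth cell defensin Defa3 was 16.95 against 2.3 to 3.54, at a probe that other defensin transcripts may share. Replicate 5 was above all 5 others for 5 of 5 genes of ileal bile acid handling, 10 of 11 small-intestinal enterocyte genes and 13 of 13 Paneth cell genes. The same array was below all others for 8 of 9 genes of large-intestinal epithelium, among them Car2, a carbonic anhydrase, at 13.44 against 15.34 to 15.66, and Hoxa11 at 5.29 against 7.76 to 9.07. These 4 lists were chosen after the values were seen. Some of the 16 cecum arrays on other diets also held such transcripts, Sis up to 11.03 and Defa3 up to 15.79. The part that small-intestinal transcripts have in the results was not tested, and folds that replicate 5 moves by over 1.5 times are given with and without it.

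Of 20887 genes measured, 11341 (54.3%) were detected in both tissues, 952 (4.56%) in cecum only and 299 (1.43%) in liver only. In probes, 37.4% of 55681 were detected in both tissues and 1.16% in liver only. A further 4151 genes (19.9%) were not well above background on any HFD array, and 4144 were so on some arrays. The restricted genes of liver lay further above background than those of cecum. The median bound was 40.2-fold for liver-only and 5.84-fold for cecum-only genes, and 63 of 299 liver-only but 22 of 952 cecum-only genes had a bound above 1000-fold. For 24 cecum-only and 9 liver-only genes another probe of the same gene was detected in the other tissue.

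By the test, 10061 genes (48.2%) differed between tissues, 5669 (27.1%) higher in cecum and 4392 (21.0%) higher in liver, and for 47.9% of all genes the arrays of the tissues did not overlap. In probes, 10815 of 55681 (19.4%) were higher in cecum and 9951 (17.9%) higher in liver, with a highest adjusted P of 0.0229 among those called. On the scan day that held both tissues, with 2 arrays each, 7417 probes were higher in cecum and 5700 in liver, and with scan day as a block the counts were 10365 and 9295. The balance of directions depends on the scaling. Of called probes, 52.1% were higher in cecum as normalised here, 32.7% after 75th percentile scaling, which moved the median difference of all probes to -0.49, 32.5% after median scaling, 41.1% after loess over all pairs of arrays and 71.2% in the values the authors processed.

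**Figure D1:**
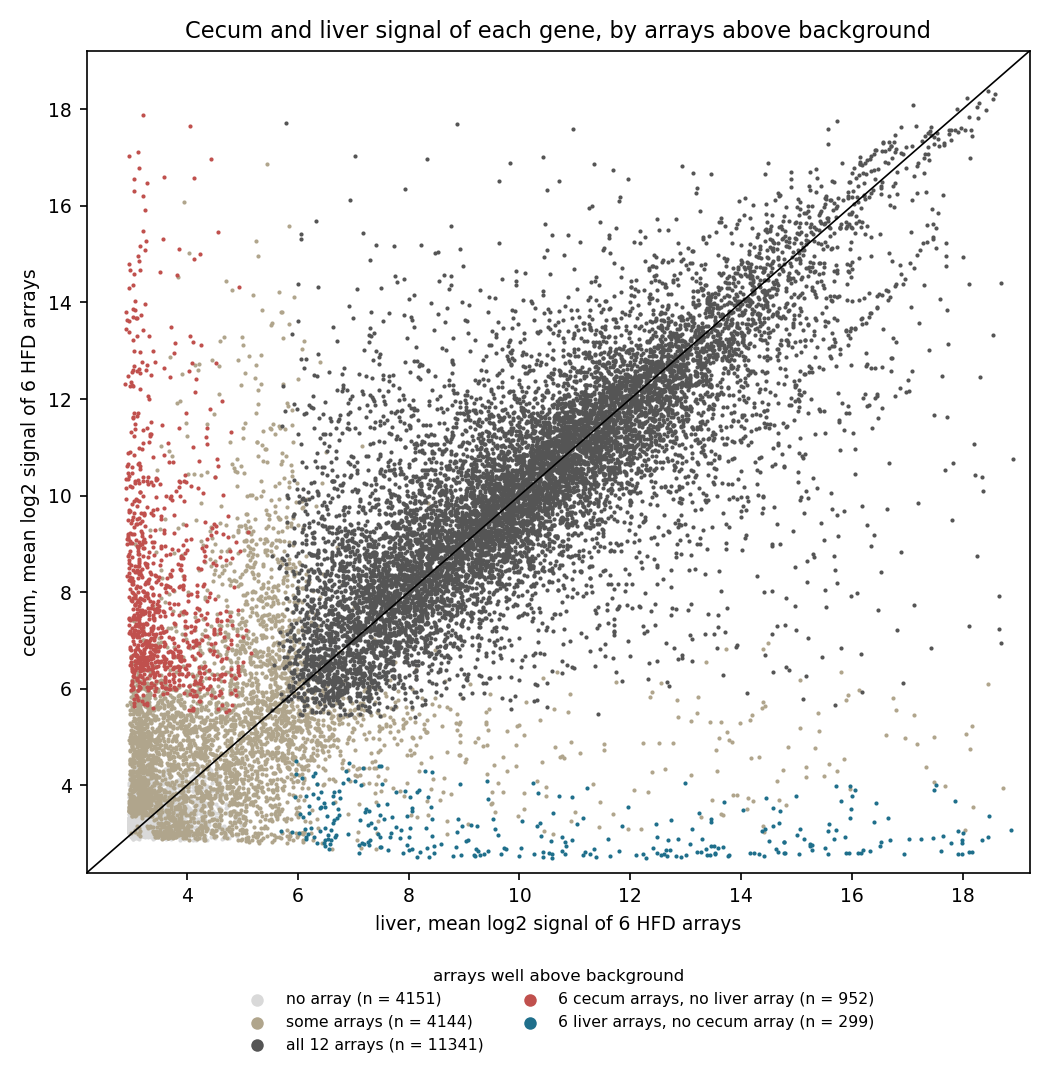
Mean log2 normalised signal of each gene over 6 liver HFD arrays (horizontal) and 6 cecum HFD arrays (vertical), coloured by the arrays on which its probe was well above background, with the line of equal signal. Genes detected in cecum only (952) lie along the left side and in liver only (299) along the bottom, while the 11341 detected in both spread about the line.

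The liver-only genes with the largest bounds encode abundant plasma proteins. Alb, the gene of serum albumin whose promoter is printed above, was at 2.27 to 4.41 (median 2.98) in cecum and 18.69 to 19.0 (median 18.9) in liver, at least 18399.8-fold higher in liver (difference -15.81 ± 0.25, adjusted P = 7.25e-38). Ahsg, which encodes the carrier protein fetuin-A, was at 2.46 to 4.26 (median 3.26) in cecum and 18.4 to 18.64 (median 18.46) in liver, at least 13880.4-fold higher (difference -15.11 ± 0.4, adjusted P = 1.5e-30). Fgg, the gamma chain of fibrinogen, was at least 11140.4-fold higher in liver (difference -15.53 ± 0.16, adjusted P = 2.7e-44). No cecum array came near the liver arrays for these 3 genes. Serpina3k, a serine protease inhibitor, was at least 12661-fold higher in liver, and the major urinary protein genes Mup20 and Mup5, which have near-identical copies that their probes may share, at least 13602-fold and 10813-fold.

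The cecum-only genes with the largest bounds belong to the epithelial surface and its mucus. Dmbt1, a mucosal scavenger receptor protein, was at 17.66 to 18.12 (median 17.92) in cecum and 2.95 to 3.53 (median 3.19) in liver, at least 7744-fold higher in cecum (difference 14.69 ± 1.26, adjusted P = 1.72e-13). Zg16, a lectin of goblet cell mucus, was at 17.41 to 18.26 (median 17.56) and 3.32 to 5.15 (median 3.86), at least 6109-fold higher (difference 13.59 ± 0.95, adjusted P = 3.39e-16). Krt20, the keratin of differentiated colonocytes, was at 16.97 to 17.47 (median 17.05) and 2.89 to 3.43 (median 3.1), at least 4516-fold higher (difference 14.0 ± 0.15, adjusted P = 5.72e-44). The cecum arrays of each gene lay within 1 unit of each other and far above the liver arrays. For Dmbt1 the SD between liver arrays was 0.25 on the HFD and 4.27 on the LFD, and its SE pools both. Bounds were 4267-fold for 1810065E05Rik, 3685-fold for the tetraspanin Tspan1 and 3599.8-fold for Lypd8, which keeps flagellated bacteria away from the colon surface.

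**Figure D2:**
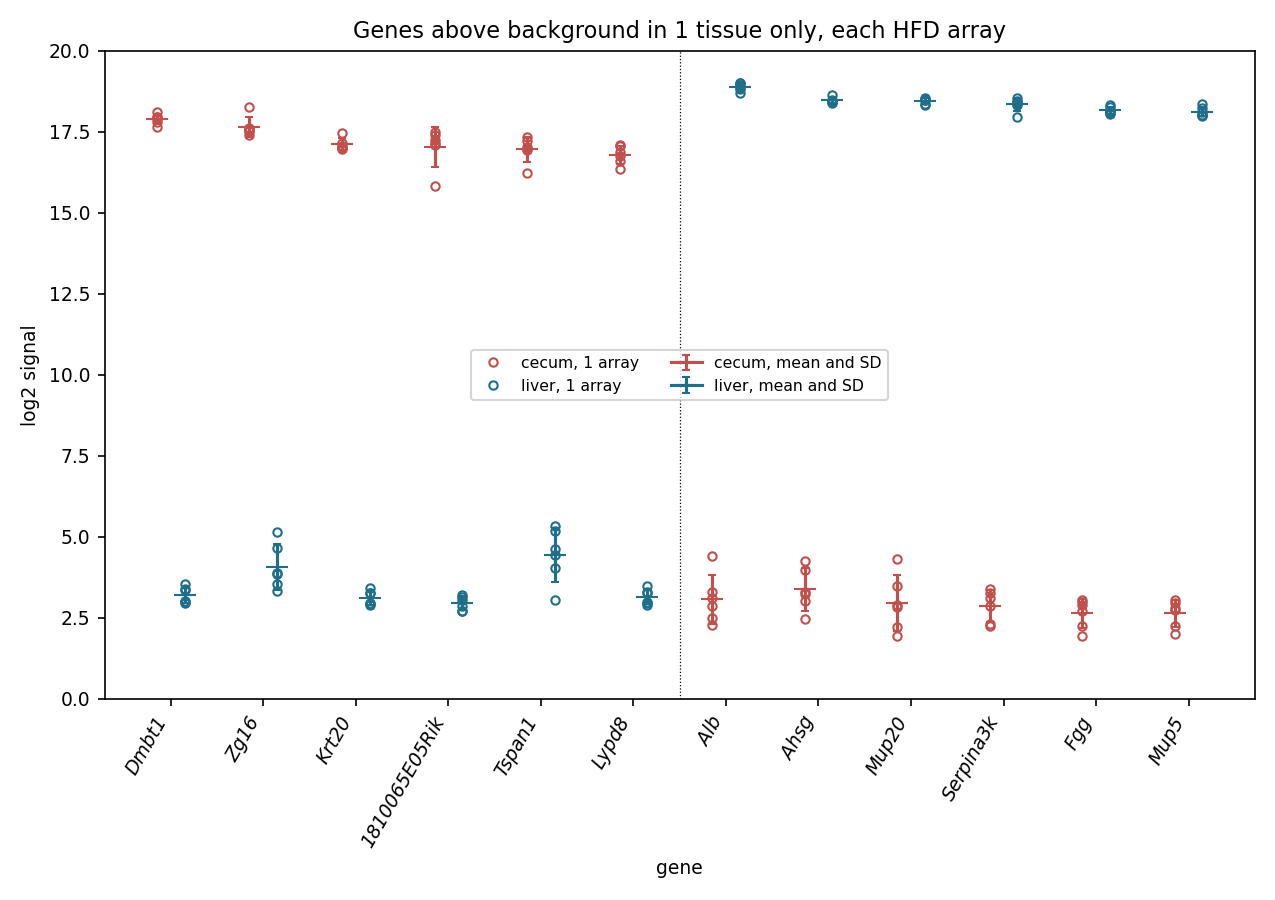
Log2 normalised signal on each of the 12 HFD arrays for the 6 cecum-only (left) and the 6 liver-only (right) genes of largest bound, with a point for each array and the mean and SD of each tissue. Alb lies at 18.69 to 19.0 in liver and 2.27 to 4.41 in cecum, and Krt20 at 16.97 to 17.47 in cecum and 2.89 to 3.43 in liver.

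The genes next described were detected on all 12 arrays. Guca2a, which encodes guanylin, the gut peptide that drives chloride and water secretion, was at 17.19 to 17.94 (median 17.8) in cecum and 5.25 to 6.52 (median 5.73) in liver, 3932-fold higher in cecum (difference 11.94 ± 0.22, adjusted P = 4.17e-36). Krt19, an epithelial keratin, was 1015-fold higher in cecum. The glutathione peroxidase of gut epithelium, Gpx2, was 653-fold higher, the brush border myosin Myo1a 616-fold and the cytochrome Cyp2c55 583-fold. Gsdmc, one of several near-identical gasdermin genes, was 655-fold higher. In the other direction, Serpinc1, which encodes antithrombin, was at 6.5 to 7.73 (median 7.36) in cecum and 18.01 to 18.26 (median 18.11) in liver, 1797-fold higher in liver (difference -10.81 ± 0.15, adjusted P = 2.42e-40). Gnmt, which consumes excess methyl groups, was 1791-fold higher in liver and vitronectin, Vtn, 1523-fold. The alpha-1 antitrypsin genes Serpina1e (3441-fold), Serpina1a (2748-fold) and Serpina1c (1707-fold) are near-identical copies whose probes may share transcripts. They were raised in cecum replicate 5, Serpina1e to 11.46 against 5.6 to 6.56 in the other 5 arrays, and Serpina1c also in replicate 4, at 10.09. Without replicate 5 their folds were 6445, 5346 and 2988.

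Cell type markers mostly followed the tissue labels. For all marker counts, the shares over all genes were 27.1% higher in cecum and 21.0% higher in liver. For hepatocytes, 9 of 10 markers were higher in liver, with a summed signal of 21.05 to 21.19 in liver and 18.16 to 18.97 in cecum. The cecum sum came from Slc10a1, the bile acid importer of hepatocytes, whose brighter probe was level between tissues (difference -0.09) while its other probe was detected in liver only (difference -10.75). The defining markers Alb and Hpx (at least 7787-fold higher in liver) were below background in all 6 cecum arrays. All 10 goblet cell markers and 10 of 11 colonocyte markers were higher in cecum, where the goblet sum was 19.2 to 19.91, against 9.46 to 10.52 in liver. Muc2, the gel-forming mucin, was at 14.19 to 15.57 (median 14.58) in cecum and 2.62 to 3.57 (median 2.92) in liver, at least 837-fold higher in cecum. Fcgbp, Clca1 and Spink4, all of goblet cell secretions, had bounds of 2914-fold, 2568-fold and 3017-fold.

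Hormone and muscle cells of the gut wall were read as well. Of 10 enteroendocrine markers 8 were higher in cecum, among them the granins Chgb (at least 106-fold) and Chga (at least 58.2-fold) and the glucagon gene Gcg, the source of GLP-1 (at least 45.2-fold). All 10 smooth muscle markers were higher in cecum, with sums of 17.31 to 18.22 against 11.89 to 12.7. Actg2, the gamma actin of visceral muscle, was 1048-fold higher (well above background on 3 liver arrays), the calponin Cnn1 861-fold (4 liver arrays) and the myosin heavy chain Myh11 276-fold (1 liver array). Among 10 markers of enteric neurons and glia 8 were higher in cecum, including S100b (at least 12.0-fold). Elavl4 was called higher in liver at its brighter probe (difference -1.71) and was higher in cecum at its other probe (1.86). All 3 markers of the interstitial cells of Cajal, which pace gut contraction, were higher in cecum, Kit 4.36-fold and Ano1 5.12-fold. Of 10 stem cell and proliferation markers 7 were higher in cecum, Mki67 44.1-fold and Ascl2 at least 52.4-fold. Ephb2 was called higher in liver (difference -1.48), while Lgr5 (0.07) and Smoc2 (0.44) were not called. Axin2 lost its cecum call without cecum replicate 5. Of 7 fibroblast markers 4 were higher in cecum and 1, Dcn, was higher in liver (difference -0.95). Of 7 tuft cell markers 3 were higher in cecum and 4 were not called.

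The liver arrays held the markers of the other liver cells. Of 8 Kupffer cell markers 6 were higher in liver, with Clec4f at least 183-fold and Vsig4 at least 142-fold. Of 7 markers of sinusoidal endothelium 5 were higher there, Clec4g at least 427-fold. Of 7 stellate cell markers 6 were higher in liver, Reln at least 3.41-fold, and the pericyte gene Rgs5 was 3.8-fold higher in cecum. Cholangiocyte markers were mostly epithelial genes of both organs, and 5 of 7 were higher in cecum. Spp1, osteopontin, was at least 28.1-fold higher in liver. Of 10 lymphoid markers 6 were higher in cecum, Jchain of plasma cells 71.2-fold, and 3 were not called. Only Cd4 was higher in liver, 12.3-fold. The other T cell markers did not follow it, since Cd3g and Cd8a were higher in cecum and Cd3e was not called (difference -0.25).

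Some markers of tissues not named by the labels were present. All 8 adipocyte markers were higher in cecum, with a sum that ran from 13.98 to 17.42 over the cecum arrays and from 10.83 to 12.47 over the liver arrays. Adipoq, adiponectin, was at 9.69 to 13.76 (median 11.22) in cecum and 2.94 to 7.92 (median 3.36) in liver, 182-fold higher in cecum (1 liver array, difference 7.51 ± 1.68, adjusted P = 0.000199), with its highest value in cecum replicate 2. Without liver replicate 3 the difference was 8.29. Cfd, adipsin, at 11.4 to 15.38 and 5.95 to 10.87, was 47.1-fold higher (adjusted P = 0.013) and lost its call without cecum replicate 2 or 5 or liver replicate 1, 5 or 6. Of 6 pancreatic acinar markers, 2 were higher in liver, Amy2a5 102-fold (well above background on 3 cecum arrays) and Ctrb1 8.81-fold (5 cecum arrays), while the other 4 were below background on all 12 arrays. Of 5 erythroid markers 4 were higher in liver, the haem synthesis gene Alas2 58.2-fold. The part of fat, blood and lymphoid cells in the gene results was not tested.

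Every one of the 23 measured hepatocyte plasma proteins was higher in liver, against 21.0% of all genes, with a median difference of -10.73, where the median over all genes was 0.04. Ttr, the thyroxine carrier transthyretin, was at 9.29 to 11.7 (median 10.74) in cecum and 17.33 to 18.0 (median 17.91) in liver, 143-fold higher in liver. Apoa1, of high-density lipoprotein, was at 2.75 to 14.39 (median 3.64) in cecum and 16.69 to 16.95 (median 16.81) in liver, 2399-fold higher (difference -11.23 ± 1.35, adjusted P = 1.73e-09). Its 14.39 was replicate 5, without which the difference was -12.99. Of the 5 other cecum arrays, only 1 had this probe well above background. The vitamin D-binding protein gene Gc, with its promoter above, was at 2.02 to 2.92 (median 2.77) in cecum and 17.87 to 18.11 (median 17.99) in liver, at least 9922-fold higher (difference -15.4 ± 0.15, adjusted P = 5.45e-45).

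Coagulation factors were higher in liver for 17 of 20 genes, against 21.0% of all genes. Fgb, the fibrinogen chain whose promoter is printed above, was at 2.09 to 4.22 (median 2.86) in cecum and 17.91 to 18.14 (median 17.98) in liver, at least 9909-fold higher (difference -15.12 ± 0.33, adjusted P = 1.11e-33). Kng1, kininogen, was 25337-fold higher in liver (1 cecum array). A pair of genes ran the other way. Vwf, the von Willebrand factor that endothelium and platelets make, was at 10.84 to 11.43 (median 11.17) in cecum and 9.35 to 9.62 (median 9.48) in liver, 3.2-fold higher in cecum (difference 1.68 ± 0.22, adjusted P = 2.07e-08). F3, tissue factor, which cells around vessels carry, was 2.7-fold higher in cecum. F10, at 14.4 to 16.78 in cecum and 14.49 to 15.04 in liver, was not called.

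Complement was higher in liver for 19 of 21 genes, against 21.0% of all genes, with a median difference of -7.44. Mbl2, a mannose-binding lectin, was at least 5070.2-fold higher in liver, the control protease Cfi at least 3528-fold and C8a, of the membrane attack complex, at least 1079-fold. C3, the central component, was 37.3-fold higher in liver. C1qa (difference -0.05), which macrophages make, and C7 (0.65) were not called.

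All 7 urea cycle genes were higher in liver, against 21.0% of all genes. Cps1, which fixes ammonia, was at 5.24 to 10.29 (median 6.39) in cecum and 14.16 to 14.92 (median 14.32) in liver, 188-fold higher in liver (5 cecum arrays), or 304-fold without replicate 5. Ass1 was at 10.11 to 10.85 (median 10.52) and 17.52 to 17.85 (median 17.66), 143-fold higher in liver (difference -7.16 ± 0.17, adjusted P = 1.22e-32). The last step is split between genes. Arg1, the cytosolic arginase of the cycle, was at 2.16 to 4.01 (median 2.92) in cecum and 15.41 to 15.89 (median 15.71) in liver, at least 1983-fold higher in liver. Its mitochondrial counterpart Arg2 was at 10.0 to 10.41 (median 10.28) in cecum and 2.79 to 4.69 (median 3.06) in liver, at least 37.9-fold higher in cecum (difference 6.95 ± 0.26, adjusted P = 2.65e-25).

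Genes of amino acid breakdown and the methionine cycle were higher in liver for all 20 measured, against 21.0% of all genes. Their median difference was -10.22. Bhmt, which remakes methionine with betaine, was at 2.27 to 5.33 (median 2.7) in cecum and 17.69 to 18.29 (median 18.08) in liver, 32091-fold higher in liver (1 cecum array, replicate 5, without which the bound is 10429.6-fold). Mat1a, the liver methionine adenosyltransferase, was at least 1469-fold higher in liver, while Mat2a, of most other cells, was 4.23-fold higher in cecum (difference 2.08 ± 0.12).

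All 10 genes of bile acid synthesis and conjugation were higher in liver, against 21.0% of all genes. Cyp7a1, the rate-limiting enzyme, was at 1.98 to 2.92 (median 2.5) in cecum and 9.49 to 11.51 (median 10.62) in liver, at least 58.7-fold higher (difference -8.1 ± 0.64, adjusted P = 1.78e-14). Cyp8b1, which makes cholic acid, had a bound of 102-fold. Slc27a5, which readies bile acids for conjugation, was at 3.69 to 5.14 (median 4.36) and 17.24 to 17.42 (median 17.34), 7906-fold higher in liver (2 cecum arrays). Baat, which joins the amino acid, was 465-fold higher (1 cecum array).

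Of 13 bile acid and sterol carriers, 6 were higher in liver and 3 in cecum, against 21.0% and 27.1% of all genes. The hepatocyte importer Slco1b2 was at 2.18 to 3.06 (median 2.53) in cecum and 16.86 to 17.05 (median 16.93) in liver, at least 4793-fold higher in liver (difference -14.36 ± 0.26, adjusted P = 2.49e-36). Abcb11, the canalicular bile salt pump, was at 1.93 to 4.4 (median 2.75) and 14.77 to 15.42 (median 15.16), at least 1368-fold higher in liver. The 3 higher in cecum were Slc51a, Slc51b and Fabp6. Slc51a, a subunit of the basolateral bile acid exporter, was at 12.81 to 15.16 (median 13.13) in cecum and 2.62 to 3.19 (median 2.93) in liver, at least 353-fold higher in cecum, or 278-fold without replicate 5. Slc51b, the other subunit, was 275-fold higher (4 liver arrays). Fabp6 was at 9.51 to 18.4 (median 10.49) in cecum and 2.82 to 4.61 (median 3.03) in liver, at least 94.1-fold higher, and at least 36.3-fold without replicate 5. Slc10a2, the apical importer, did not pass the test (0.4, or -0.12 without replicate 5). Slc10a1, the hepatocyte importer, was not called at its brighter probe (-0.09), although its other probe was detected in liver only.

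Bile acid and FGF signalling genes were higher in liver for 5 of 7, against 21.0% of all genes. Nr1h4, the nuclear bile acid receptor FXR, was at 12.63 to 13.46 (median 12.88) in cecum and 13.9 to 14.1 (median 13.96) in liver, 2.03-fold higher in liver (difference -1.02 ± 0.14, adjusted P = 2.76e-08). Its target Nr0b2 was at least 50.1-fold higher in liver. Klb, the coreceptor through which liver hears the gut hormone FGF15, was 76.1-fold higher in liver (2 cecum arrays). Fgf15 itself was well above background on a single HFD array, cecum replicate 5 (10.22, against 2.65 to 3.33), and was not called. Vdr, the vitamin D receptor, which also binds lithocholic acid, was at 13.02 to 13.54 (median 13.31) in cecum and 2.73 to 3.59 (median 3.1) in liver, at least 322-fold higher in cecum (difference 10.21 ± 0.19, adjusted P = 4.65e-36).

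All 12 genes of gluconeogenesis and glycogen were higher in liver, against 21.0% of all genes. G6pc, which frees glucose into blood, was at 3.92 to 7.35 (median 4.02) in cecum and 13.16 to 15.86 (median 14.17) in liver, 782-fold higher (1 cecum array, replicate 5, without which the bound is 717-fold). Fbp1 was 313-fold higher. Pck1 was at 11.31 to 12.23 (median 11.68) and 15.3 to 16.7 (median 15.94), 18.7-fold higher in liver (difference -4.22 ± 0.23). Its mitochondrial relative Pck2 was at 5.54 to 5.91 (median 5.78) in cecum and 3.82 to 4.56 (median 4.22) in liver, at least 1.71-fold higher in cecum.

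Of 24 genes of glycolysis and sugar entry, 9 were higher in cecum, 8 in liver and 7 were not called, against 27.1% and 21.0% of all genes called in each direction. Isoenzymes of a step moved apart. Pkm, pyruvate kinase of muscle and dividing cells, was at 13.74 to 14.48 (median 14.37) in cecum and 8.99 to 9.63 (median 9.25) in liver, 31.3-fold higher in cecum (difference 4.97 ± 0.17, adjusted P = 1.92e-26). Pklr, pyruvate kinase of liver and red cells, was at 7.22 to 8.18 (median 7.54) and 9.77 to 10.97 (median 10.42), 6.92-fold higher in liver (difference -2.79 ± 0.21, adjusted P = 4.6e-15). The hexokinases Hk1 and Hk2 were 30.8-fold and 65.8-fold higher in cecum (Hk2 on 5 liver arrays). Aldoa, an aldolase, was 5.34-fold higher in cecum. Slc2a2, the hepatocyte glucose carrier, was at least 831-fold higher in liver and Slc2a1 12.1-fold higher in cecum. Khk, which begins fructose breakdown, was 25.2-fold higher in liver.

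Other pairs did the same. Gys2 was 1763-fold higher in liver (2 cecum arrays, difference -10.78, or -11.41 without cecum replicate 2) and Gys1, the glycogen synthase of other tissues, 6.57-fold higher in cecum. The glycogen phosphorylases Pygl and Pygb were 84.4-fold higher in liver and 21.1-fold higher in cecum. Gls2, a glutaminase of liver, was 949-fold higher in liver (4 cecum arrays). Phosphofructokinase did not follow the names, as Pfkl, the liver type, was 6.62-fold higher in cecum, with Pfkp 28.1-fold higher in cecum and Pfkm 1.89-fold higher in liver. Over all 38 genes of such pairs, 17 were higher in cecum and 17 in liver, against 27.1% and 21.0% of all genes. The pairs were chosen for tissue differences known from textbooks.

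**Figure D3:**
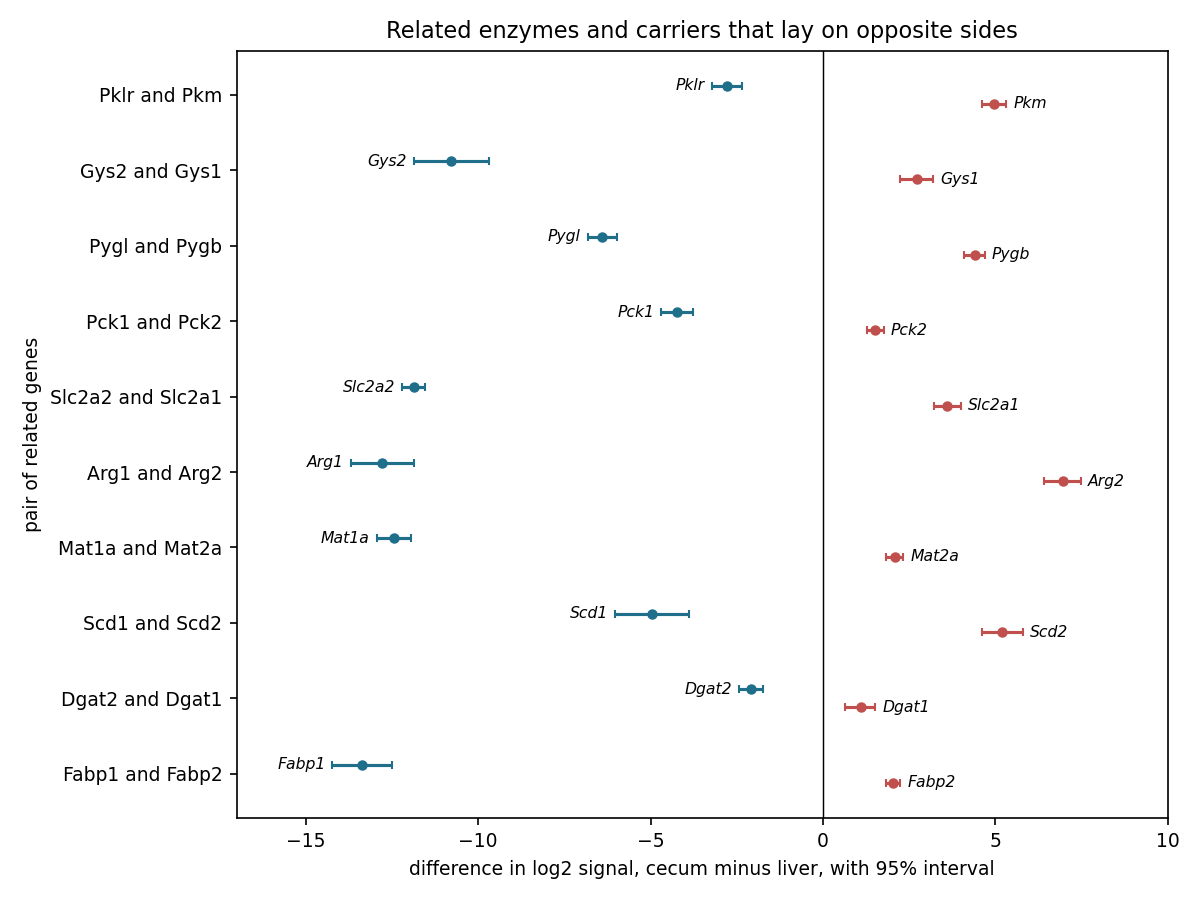
Difference of log2 normalised signal, cecum minus liver, with its 95% interval, for 10 pairs of related enzymes and carriers, shown because their members lay on opposite sides of 0. Pkm lies at 4.97 and Pklr at -2.79, and Scd2 at 5.2 and Scd1 at -4.96.

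Fatty acid oxidation genes were detected in both tissues for all 20 members, with smaller steps than the liver-restricted lists (median difference -1.33). Of these oxidation genes 15 were higher in liver, against 28.0% of all genes detected in both. Ppara, the nuclear receptor that drives them, was at 11.61 to 12.08 (median 11.83) in cecum and 14.62 to 15.35 (median 15.12) in liver, 9.29-fold higher in liver (difference -3.22 ± 0.17, adjusted P = 4.02e-20). Acsl1, which activates fatty acids, was 21.2-fold higher and the peroxisomal thiolase Acaa1b 12.7-fold higher. Acsl1 was highest among cecum arrays in replicate 2, at 13.06. Hadha, of the mitochondrial trifunctional protein, differed by 0.01, with a 95% interval of -0.26 to 0.29. Slc25a20, the carnitine carrier, was 1.69-fold higher in cecum.

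Of 5 ketone body genes, all detected in both tissues, 4 were higher in liver, against 28.0% of all genes detected in both. Oxct1, which burns ketone bodies and is known to be absent from hepatocytes, was at 12.84 to 14.13 (median 13.09) in cecum and 8.54 to 9.07 (median 8.78) in liver, 21.9-fold higher in cecum (difference 4.46 ± 0.21, adjusted P = 3.63e-22). Acat1 was 4.39-fold higher in liver.

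Of 20 genes of fatty acid and triglyceride synthesis, 16 were higher in liver, against 21.0% of all genes. Fasn, fatty acid synthase, was at 7.79 to 8.38 (median 7.94) in cecum and 9.34 to 12.55 (median 11.72) in liver, 9.93-fold higher in liver (difference -3.31 ± 0.44, adjusted P = 2.1e-08). Scd1, the stearoyl desaturase of liver, was at 10.01 to 12.69 (median 11.26) and 15.81 to 17.54 (median 16.23), 31.0-fold higher in liver, while its relative Scd2 was at 13.5 to 14.52 (median 13.82) and 8.36 to 8.97 (median 8.75), 36.8-fold higher in cecum (difference 5.2 ± 0.29, adjusted P = 3.4e-19). Thrsp was 44.7-fold higher in liver. Mogat2, which remakes triglyceride in enterocytes, was at 10.08 to 14.92 (median 10.83) in cecum and 4.97 to 6.83 (median 5.8) in liver, 48.9-fold higher in cecum (5 liver arrays), and its difference of 5.61 was 4.9 without replicate 5. Dgat1 was 2.12-fold higher in cecum, or 1.63-fold without replicate 5, and Dgat2 4.25-fold higher in liver.

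All 22 genes of cholesterol synthesis were detected in both tissues and 13 were not called, with 8 higher in liver and 1 in cecum, against 28.0% and 28.8% of all genes detected in both. Tm7sf2 and Sc5d, late steps of the pathway, were 8.82-fold and 7.62-fold higher in liver, and Insig1, which holds the pathway in check, 5.74-fold. Srebf2, the pathway's transcription factor, was 3.67-fold higher in cecum. Hmgcs1, at 13.73 to 14.97 in cecum and 13.3 to 15.79 in liver, overlapped between tissues (difference -0.17, 95% interval -0.82 to 0.48). Liver replicates 2 and 4 lay above the other liver arrays for several members. Sqle was 13.17 and 12.68 there against 10.04 to 10.94, and Mvd 10.8 and 10.61 against 7.75 to 9.19. For both genes the other liver arrays lay below every cecum array (12.14 to 13.4 and 9.47 to 10.39). A member that was not called is therefore not shown to be level between tissues. Without cecum replicate 5, 10 genes were higher in liver.

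Lipoprotein genes were higher in liver for 14 of 16, against 21.0% of all genes. Apoc3 was 8178-fold higher (2 cecum arrays), or 19679-fold without replicate 5, Lcat, which esterifies plasma cholesterol, at least 443-fold, and Apoe 19.7-fold. The fatty acid-binding proteins divided. Fabp1, of liver, was at 3.36 to 7.89 (median 4.19) in cecum and 17.99 to 18.24 (median 18.15) in liver, 10621-fold higher in liver (2 cecum arrays), or 16409-fold without replicate 5. Fabp2, of intestine, was at 17.37 to 18.13 (median 17.56) and 15.4 to 15.83 (median 15.54), 4.08-fold higher in cecum (difference 2.03 ± 0.11, adjusted P = 2.56e-20). Mttp, which loads lipid onto apolipoprotein B, was 85.7-fold higher in liver (4 cecum arrays), but in cecum replicate 5 it reached 12.41, within the liver range of 12.34 to 12.76, and without that array the fold was 205.

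The tricarboxylic acid cycle differed little between the tissues. All 16 genes were detected in both, 11 were not called and the median difference was -0.17. Calls were 3 higher in cecum and 2 in liver, against 28.8% and 28.0% of all genes detected in both. Idh3a was 3.95-fold and Cs, citrate synthase, 1.93-fold higher in cecum. Fh1 was 2.04-fold and Sucla2 1.9-fold higher in liver.

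Among 13 genes of iron handling, 8 were higher in liver and 4 in cecum, against 21.0% and 27.1% of all genes. Hamp, hepcidin, the hormone that closes iron export, was at 2.07 to 3.13 (median 2.72) in cecum and 15.4 to 17.03 (median 16.39) in liver, at least 3142-fold higher in liver (difference -13.69 ± 0.24, adjusted P = 8.46e-37). Tfr2, through which hepatocytes sense transferrin, was at least 1981-fold higher in liver, and Hamp2 875-fold (2 cecum arrays). Heph, the copper oxidase of gut iron export, was at 12.95 to 13.46 (median 13.23) in cecum and 6.35 to 7.01 (median 6.73) in liver, 91.0-fold higher in cecum (difference 6.51 ± 0.12, adjusted P = 7.46e-36). Cybrd1, an iron reductase, was at least 5.05-fold and the transferrin receptor Tfrc 8.38-fold higher in cecum. Slc11a2, the iron importer, was 2.18-fold higher in cecum at 1 probe, and its other probe differed by -0.18. Fth1, a ferritin chain, differed by 0.03 (95% interval -0.11 to 0.18).

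**Figure D4:**
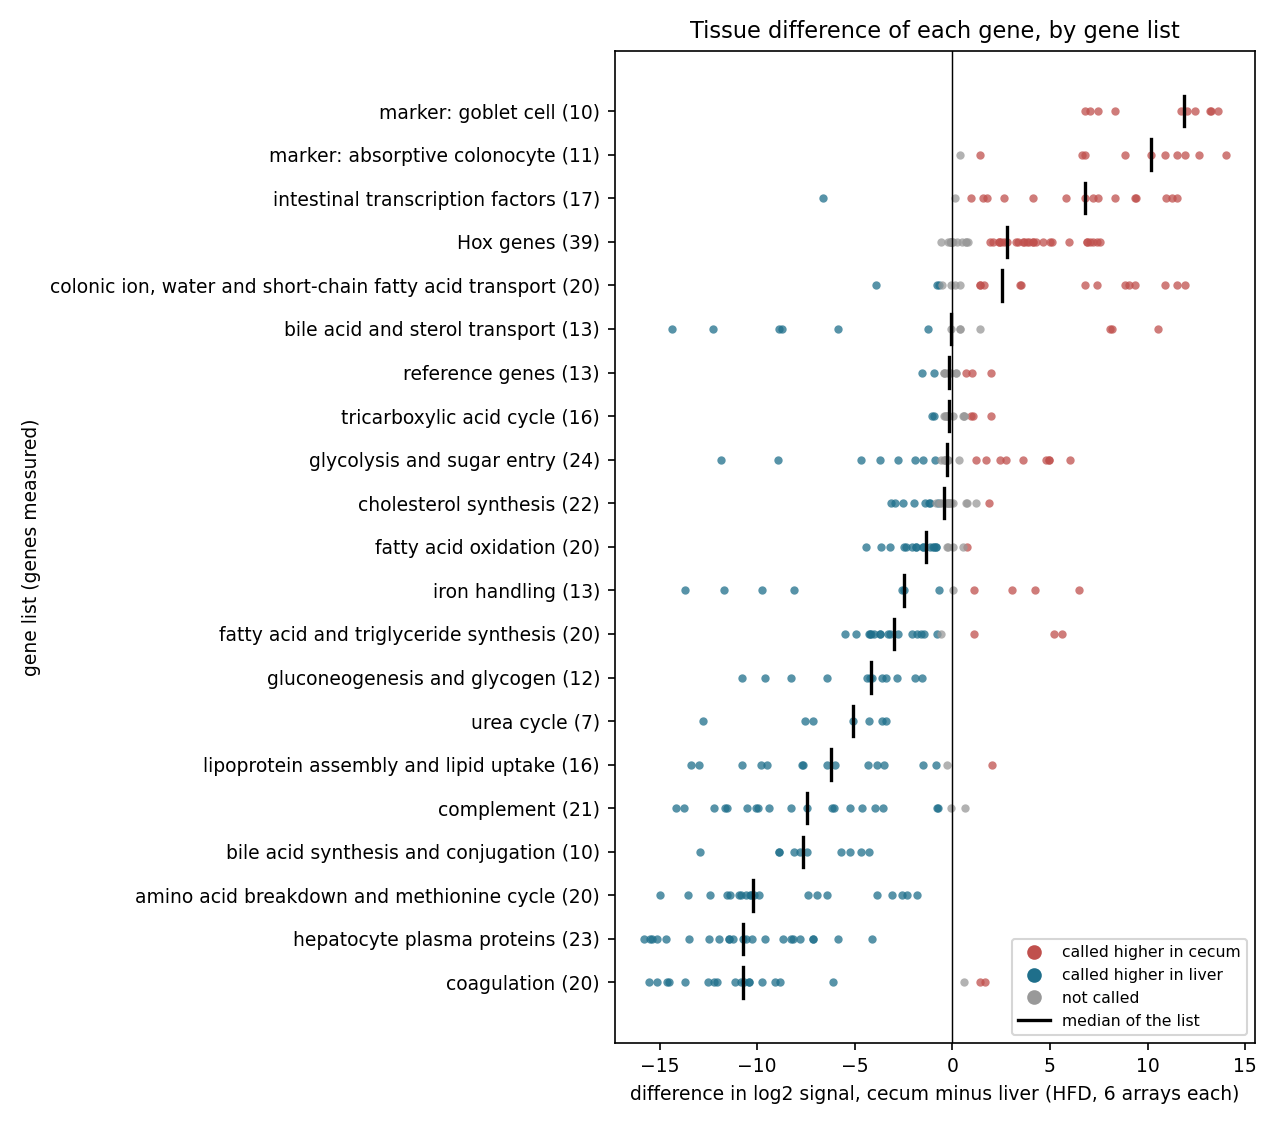
Difference of log2 normalised signal, cecum minus liver, of every measured gene of 21 lists, 1 row a list, coloured by call, with the list median as a bar. Bile acid synthesis (median -7.63) lies wholly on the liver side, the tricarboxylic acid cycle (-0.17) lies around 0 and intestinal transcription factors (6.78) lie on the cecum side but for Gata4.

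Colonic transport of ions, water and short-chain fatty acids was higher in cecum for 13 of 20 genes, against 27.1% of all genes. Slc26a3, whose promoter is printed above, was at 12.34 to 14.31 (median 14.08) in cecum and 2.61 to 3.2 (median 2.91) in liver, at least 456-fold higher in cecum (difference 10.91 ± 0.23, adjusted P = 2.18e-34). Clca4a was at least 828-fold higher. Slc5a8, which imports butyrate with sodium, was at 9.32 to 11.06 (median 9.73) and 2.83 to 3.3 (median 3.14), at least 30.3-fold higher in cecum, with its highest value in replicate 5. Car1, a carbonic anhydrase, was 451-fold higher. Higher in liver were the proton pump subunit gene Atp12a (15.2-fold, 2 cecum arrays), Aqp4 (1.75-fold) and the monocarboxylate carrier Slc16a1 (1.63-fold). The last 2 changed their call under some scalings.

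Transcription factors of the intestine were higher in cecum for 15 of 17 genes, against 27.1% of all genes. Cdx2, with its promoter printed above, was at 14.14 to 14.78 (median 14.64) in cecum and 2.65 to 3.67 (median 3.07) in liver, at least 781-fold higher in cecum (difference 11.53 ± 0.28, adjusted P = 8.15e-32). Cdx1 was at least 1118-fold higher and Isx, which represses carotene uptake, at least 529.8-fold. Gata4, known from the upper small intestine and from liver, was at 2.18 to 3.72 (median 3.04) in cecum and 9.27 to 10.03 (median 9.56) in liver, at least 29.6-fold higher in liver (difference -6.63 ± 0.22, adjusted P = 7.93e-27).

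Liver-enriched factors were less exclusive, since 11 of 14 were detected in both tissues. Hnf4a was at 16.01 to 16.45 (median 16.15) in cecum and 15.93 to 16.18 (median 16.16) in liver, and its difference of 0.09 (95% interval -0.09 to 0.27) lay within 1.5-fold. Hnf4g, its relative, was at 6.81 to 9.81 (median 7.22) and 2.95 to 4.39 (median 3.38), at least 6.28-fold higher in cecum. Onecut2 was 449.6-fold higher in liver (2 cecum arrays), Onecut1 16.8-fold (5 liver arrays, 1 cecum array) and Prox1 at least 17.6-fold. Foxa1, a forkhead factor of gut endoderm, was 1.98-fold higher in cecum, and its call changed under some scalings.

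Hox genes, which set position along the body axis, were higher in cecum for 26 of 39, against 27.1% of all genes, and none was higher in liver. A total of 13 were detected in cecum only and 9 on no HFD array. Hoxa7 was at 11.15 to 13.08 (median 12.62) in cecum and 4.3 to 5.75 (median 5.35) in liver, 149-fold higher in cecum (4 liver arrays). Hoxb9 was at 10.2 to 11.36 (median 10.83) and 2.85 to 4.01 (median 3.34), at least 56.5-fold higher, and Hoxb8 at least 45.1-fold. Hoxb13, Hoxc13, Hoxd12 and Hoxd13 were below background in both tissues, and Hoxa13 was above it on 1 cecum and 1 liver array.

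The study names 17 of the measured genes for its diet effects or uses them as a PCR reference. Of these, 10 were higher in cecum, against 27.1% of all genes. The study chose many of them on these samples, so the list is not independent of them. Ffar2, a receptor for short-chain fatty acids, was at 8.35 to 9.56 (median 8.59) in cecum and 4.09 to 5.27 (median 4.49) in liver, at least 12.9-fold higher in cecum, whereas Ffar3, at 6.13 to 6.94 and 6.73 to 7.98, was not called. Enho, which encodes adropin, was at 10.49 to 11.77 (median 11.08) in cecum and 11.64 to 13.52 (median 13.29) in liver, 3.64-fold higher in liver (difference -1.86 ± 0.29, adjusted P = 5.77e-07). Lcn2, an iron-trapping defence protein, was at 6.32 to 7.49 (median 6.78) and 9.08 to 11.15 (median 9.72), 7.6-fold higher in liver. The tight junction gene Cldn4 was at least 30.0-fold higher in cecum, Cldn23 12.8-fold (4 liver arrays) and the dendritic cell integrin Itgax 6.4-fold. Tex19.1 was at least 1.61-fold higher in cecum, on 3 cecum arrays. Cldn5 (difference -0.1), Saa1 (0.42), Saa2 (-0.26) and Ube2d2a (0.18), the PCR reference, were not called, and the acute-phase genes Saa1 and Saa2 share near-identical sequence.

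Genes held as references were not all level. Of 13 measured, 8 were not called. Gusb differed by -0.05 (95% interval -0.22 to 0.12), Hprt by 0.17 and Ppia by -0.16. Ywhaz was 3.89-fold, Actb 1.97-fold and Rplp0 1.62-fold higher in cecum, while B2m was 1.93-fold higher in liver. Gapdh, at 17.27 to 17.46 in cecum and 17.7 to 17.98 in liver, did not overlap between tissues although its difference of -0.41 was below the fold needed for a call. The calls of Gapdh, Pgk1, Tbp and Rplp0 changed under some scalings.

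Across the 11341 genes detected in both tissues, 3263 (28.8%) were higher in cecum, 3172 (28.0%) higher in liver and 2860 (25.2%) had a 95% interval within 1.5-fold either way, as Hnf4a and Hadha did. The median size of the difference was 0.73, against a median SD between arrays of 0.2 in cecum and 0.17 in liver. Differences above 4-fold were found in 965 genes towards cecum and 857 towards liver. These counts read 1 probe a gene. Among all 5512 genes with several probes, 141 had called probes that ran in opposite directions. The 857 include genes of the set of co-varying probes described under other observations, such as Mcam, whose other probe was higher in cecum. On the scan day that held both tissues, with 2 arrays of each, 655 genes had so narrow an interval.

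The tissue difference was then read in mice on the other diets. Their arrays were normalised and fitted together with the HFD arrays and lay on the same slides. Slide and tissue therefore cannot be told apart here either. On the LFD, 88.4% of the genes called on the HFD were called in the same direction and 1 in the opposite one. The share was 88.4% on HFD + inulin with 0 opposed and 87.1% on HFD + inul PB with 2 opposed. A test of whether the tissue difference depended on diet, HFD against LFD, gave 20 of 55681 probes (0.0359%) at an adjusted P below 0.05, 15 of them with a gene name, and 3899 at an unadjusted P below 0.05. Without 1 HFD array this count ran from 5 to 33. Abcc3, an exporter of bile acid and drug conjugates, differed between tissues by 0.41 on the HFD and 1.87 on the LFD. For Cd79b, of B cells, the differences were 1.32 and -0.62, and for Il2rg, the receptor chain of lymphocytes, 2.32 and 0.63. Fabp5, a fatty acid-binding protein, differed by -0.81 on the HFD and -3.74 on the LFD.

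Leaving out cecum replicate 5 changed few calls. It left 5630 genes higher in cecum and 4378 higher in liver, with 5506 and 4265 of the earlier calls kept and 0 reversed. A further 34 genes became liver only, among them Bhmt, Baat and G6pc, and 42 became cecum only. Of 531 list members and named genes, 10 changed call. Abcc3, Acads, Hoxc11 and Idh3g were then called higher in cecum, Fdft1, Idi1 and Nr1i2 were called higher in liver, and Axin2, Cfd and Cftr lost their cecum call.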

How the data were processed

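Arrays were scanned with Agilent Feature Extraction 10.7.3.1, and the deposited scanner files give spot intensity (gProcessedSignal, already background-corrected by that software). A table of log2 values processed by the authors was deposited too. Its 55681 probes matched the scanner files, with r of 0.998 to 1 against log2 median signals, and it served as an alternative. Per the labels limma was used, and RNA was extracted with an RNeasy kit from 20 mg of tissue. The liver samples carry the extraction text of cecum, so tissue was checked by marker genes.

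Each array had 62976 spots, of which 59305 were not controls. Outlier spots were left out, and log2 gProcessedSignal of all 46 arrays was normalised together by cyclic loess (span 0.7, 3 iterations). The normalised values were then averaged over the spots of a probe. A limma 3.58.1 fit (R 4.3.3) of the 8 groups of tissue and diet gave differences, SE and P-values, two-sided and adjusted by Benjamini-Hochberg over all 55681 probes. Groups, with 5 or 6 arrays each, came from the labels. SE and P-values measure the spread within groups over all 46 arrays, not over the HFD arrays alone. A fit of the 12 HFD arrays only called 10538 probes higher in cecum and 9740 higher in liver. Array number limits the precision. Gene symbols of 27509 probes matched RefSeq (GRCm38.p6) names, giving 20887 genes. The array was designed on mm9, and no probe coordinates are given. A bound is the mean of the higher tissue minus the mean, over the other tissue's arrays, of the higher of the lowest signal among probes well above background (4.16 to 5.32) and the probe's own signal.

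Genes were named by a rule. In each list it took the 3 members of largest difference and any called against the list's majority. It also took the 6 restricted genes of largest bound and the 6 shared genes of largest difference each way. All reference, study and isoenzyme genes were included. Not every gene taken by the rule is described in the text. Other list members were named for their role after their values were seen. The members and lists were chosen with earlier results of these data known, and 4 lists on cecum replicate 5 after its values were seen. Without a probe were Fcn3, Polr2a and Sh2d6. In simulated data of 55120 probes with this comparison's groups, the fit called 143 of 200 probes changed by 1 on the log2 scale. It called 191 of 200 changed by -2, with 424 false calls. No other simulated probe differed between tissues, and no slide effect was added. In the data 37.3% of probes were called. The simulation therefore cannot show the number of false calls in the data or the effect of scaling tissues this unlike. Promoters on chromosome 18 were left out, and some list members are counted but not reported by name here. Alternatives covered normalisation, background, outliers, filter, call rule, blocks and leaving out arrays.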

Additional observations from a re-analysis of the deposited data

Results flagged for a closer look

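Within groups of 6 arrays, 51 of 297 pairs of a named gene and a tissue had a highest or lowest array whose gap to the next was a larger share of the group's range than Dixon's 95% critical value, which chance passes in about 1 of 20 groups. Of these, 34 were cecum HFD replicate 5. Its value lay above the range of the other 5 arrays for Fabp6 (18.4, others 9.51 to 10.78), Mogat2 (14.92, 10.08 to 11.41), Serpina1a (12.03, 5.59 to 6.94), Serpina1e (11.46, 5.6 to 6.56), Slc51a (15.16, 12.81 to 13.57), Hnf4g (9.81, 6.81 to 7.63), Dgat1 (12.92, 10.38 to 10.95), Acsl5 (12.96, 10.94 to 11.21), Khk (13.3, 11.9 to 12.08), Pfkp (12.42, 10.85 to 11.23), Fbp1 (10.52, 9.15 to 9.44) and Slc5a8 (11.06, 9.32 to 9.92). It was above by less for Myo1a (16.05, 15.04 to 15.37), Vil1 (16.67, 15.52 to 15.92), Muc2 (15.57, 14.19 to 14.69), Tff3 (17.53, 16.62 to 16.89), Zg16 (18.26, 17.41 to 17.62), Fcgbp (16.83, 16.33 to 16.5), Fabp2 (18.13, 17.37 to 17.57) and Slc10a1 (18.88, 18.13 to 18.36). Replicate 5 lay below the others for Slc26a3 (12.34, 13.73 to 14.31), Gsdmc (14.1, 15.76 to 16.22), Cyp2c55 (14.62, 16.24 to 16.64), Pfkl (10.65, 11.98 to 12.57), Hk1 (12.4, 13.74 to 13.95), 1810065E05Rik (15.81, 17.09 to 17.48), Tspan1 (16.23, 16.95 to 17.34), Aldoa (16.12, 16.82 to 17.17), Slc25a20 (11.09, 11.88 to 12.28), Mat2a (14.54, 15.08 to 15.34), Guca2a (17.19, 17.71 to 17.94), Cdx2 (14.14, 14.62 to 14.78), Fh1 (13.41, 13.75 to 13.83) and Idh3a (12.92, 13.19 to 13.34).

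Cecum replicate 2 was highest for Acsl1 (13.06, others 11.3 to 11.84), the matrix gene Dcn (15.78, 13.92 to 14.52), Dgat2 (15.42, 14.41 to 14.74) and Hprt (13.68, 13.41 to 13.47) and lowest for Itgax (9.7, 10.14 to 10.4). Cecum replicate 4 was lowest for Insig1 (7.65, 8.34 to 8.57) and cecum replicate 6 for Gnmt (5.49, 6.12 to 6.37).

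In liver, replicate 4 was highest for Scd1 (17.54, others 15.81 to 16.43) and Gapdh (17.98, 17.7 to 17.77) and lowest for C8a (14.16, 14.72 to 15.05) and Tfr2 (15.39, 15.72 to 15.84). Liver replicate 6 was highest for Ffar3 (7.98, 6.73 to 7.12) and lowest for Krt19 (6.25, 7.04 to 7.31). Single genes stood apart in liver replicate 1 (Ahsg 18.64, 18.4 to 18.48), replicate 2 (Amy2a5 10.99, 11.58 to 11.69), replicate 3 (Gpx2 5.46, 6.09 to 6.32) and replicate 5 (Kit 8.09, 7.7 to 7.8).

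The tissue difference on the HFD departed from that on the LFD, by an interaction term of limma at an adjusted P below 0.05, for 15 named probes. The difference of the differences, HFD minus LFD, was positive for Ltb (1.69, adjusted P = 0.0132), Il2rg (1.69, 0.0378), Cd79b (1.93, 0.0394), Gimap4 (1.05, 0.01) and Gimap3 (1.44, 0.0378). It was also positive for Hvcn1 (1.09), Cd9 (1.08), Tmem229b (0.82), Adgrf1 (2.11) and Fabp5 (2.93, adjusted P = 0.0411). For Fabp5 the mean in liver was 12.41 on the HFD and 15.16 on the LFD, and in cecum 11.6 and 11.42. The term was negative for Abcc3 (-1.46, adjusted P = 0.00828), Aldh1a1 (-1.24, 0.0051), Dop1b (-1.06, 0.00224), Asic5 (-1.61) and Dusp5 (-1.48), whose probe was below background on the HFD arrays.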

How the results depend on the processing

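The counts of 10815 probes higher in cecum and 9951 higher in liver moved by over 1.5 times in few settings. A fold above 4 left 4229 and 2985. Probes higher in liver numbered 17735 after 75th percentile scaling, 17993 after median scaling, 5108 in the authors' values and 5700 on the 1 scan day with both tissues. The last gave 655 shared genes within 1.5-fold in place of 2860. Background correction by normexp left 7935 and 7415 probes, no correction 8739 and 8249. Detection on at least 5 of 6 arrays, with at most 1 of 6 in the other tissue, gave 468 liver-only genes in place of 299. The probes whose tissue difference depended on diet fell from 20 to 11 after 75th percentile scaling. Without 1 HFD array in turn the counts ran from 10559 to 10805 for probes higher in cecum, 9697 to 10018 for liver, 952 to 1032 for cecum-only, 303 to 333 for liver-only, 11342 to 11439 for shared and 2750 to 2813 for shared genes within 1.5-fold, and from 5 to 33 for the diet term (5 without cecum replicate 4 or 6 or liver replicate 5, 33 without liver replicate 3). The HFD calls kept on the other diets stayed at 80.5% to 89%. Of 5759 values of 212 named genes under the alternatives, 5677 kept direction and side of the threshold, 63 lost the call, 17 gained one and 2 turned, Elavl4 (1.86) and Slc11a2 (-0.18), both at their other probe. The cause was not tested.

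Same-numbered cecum and liver arrays deviated together at r above 0.1 in 2 of 6 pairs (0.013 to 0.15), and 2 of 6 cecum arrays correlated best with their own number, so the numbers were not used to pair the tissues, and whether they mark the same mice is not known. A fit with the replicate block gave 10293 probes higher in cecum, 9551 higher in liver and 2613 shared genes within 1.5-fold. Slide as a random block (correlation 0.072) gave 10643 and 9846. Scan day, replicate 5 and the diet settings were added after the data were seen. Signal near background limits what can be read for the 4151 genes detected on no HFD array.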

Other observations

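A set of 65 of the 20819 probes detected on all 12 HFD arrays varied together over the 46 arrays within each tissue, with r above 0.9 against the mean deviation of 8 seed genes (Skint7, Ms4a4c, Ccdc138, Hemgn, Eya1, Tmem239, Mms22l and Neurl1b) that were chosen after a plot of the means was seen. All 65 were called higher in liver, by differences of -2.98 to -1.98 (median -2.54). Of these probes 49 carry the names of genes with unrelated roles. For 26 of the genes a second probe exists, of which 3 were called higher in liver, 8 higher in cecum and 15 were not called. Mcam, an adhesion protein of endothelium and smooth muscle, differed by -2.47 at the probe of this set and by 2.46 at its other probe. For Septin3 the values were -2.56 and 2.73, and for Sp110 they were -2.10 and 1.44. No gene named in the results or held in a list lay among the 65. The cause was not tested.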
